A study of Mus musculus with 6 samples.

Results

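The antioxidant and glutathione genes were examined in cultured cancer-associated fibroblasts (CAFs), the fibroblasts of a tumour. Members were taken by gene symbol from 48368 symbols in the count tables, and 56 genes met the rule. They were NRF2 and its sensor KEAP1, 4 genes of glutathione synthesis and recycling, 8 glutathione peroxidases, 6 thioredoxin system genes, 7 peroxiredoxin and sulfiredoxin genes, 4 superoxide dismutase and catalase genes, 4 NADPH, quinone and haem enzymes, and 21 glutathione S-transferases. The cells came from mammary tumours of MMTV-PyMT mice, which carry the polyomavirus middle T antigen under a promoter active in mammary epithelium. The groups were Hic-5-/- (KO, 3 libraries) and, as the controls, Hic-5+/- (HET, 3 libraries), so the controls also carried 1 disrupted allele. All 6 libraries shared the transgene and the culture medium, and no source used here gives an age. GEO describes each group as measured in technical triplicate, yet most titles bear a number of their own, and whether a library is a separate animal or culture is not said. Each p below therefore reflects library-to-library spread alone, and that may be technical.

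Cells clear superoxide with superoxide dismutases, and the hydrogen peroxide formed is then broken down by catalase, glutathione peroxidases and peroxiredoxins. The peroxidases are recharged by glutathione or thioredoxin, which draw their electrons from NADPH. The transcription factor NRF2, encoded by Nfe2l2, is held low by KEAP1 and drives many of these genes once oxidants or electrophiles modify KEAP1. Hic-5, encoded by Tgfb1i1, is a focal adhesion adaptor first cloned as a hydrogen peroxide-inducible gene.

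Library totals ran from 24954273 to 42470598 estimated counts in KO and from 25668423 to 37930851 in HET. Values below are in CPM, the counts of a gene relative to the library total after TMM scaling. The targeted gene Tgfb1i1 stood at 90.3, 0.232 and 156 CPM in KO replicates 1 to 3, against 222, 348 and 125 CPM in HET replicates 1 to 3, so only the library labelled KO replicate 2 nearly lacked its transcript. That library also stood at 0.490 CPM for the collagen gene Col1a2, 0.774 CPM for Dcn and 0.980 CPM for Thy1, far below the other 5 libraries. Other fibroblast markers were present there, with Pdgfra at 124 CPM, Pdgfrb at 138 CPM, S100a4 at 106 CPM and Postn at 439 CPM. Of these, all but Postn were still lower there than in any other library. Col1a1, at 2.55 CPM, Acta2, at 45.4 CPM, and Lum, at 0.0258 CPM, were lowest there too. Fap was at most 0.454 CPM in KO and 0.312 CPM in HET. The fibroblast label was thus met by some markers of the list and not by others. In KO replicate 2, 10 epithelial tumour markers summed to 117 CPM, against at most 55.3 CPM in other KO libraries and 72.1 CPM in HET. Krt18, at 37.8 CPM, and Cdh1, at 14.6 CPM, were highest there, while Krt19, at 0.542 CPM, was lowest there. The 8 proliferation markers summed to 2158 CPM there, against at most 781 CPM in other KO libraries and 836 CPM in HET. The part of these transcripts in the differences was not tested. The summed level of 12 fibroblast markers was 879 to 6603 CPM in KO and 8322 to 20956 CPM in HET. Leukocyte and macrophage genes were plain in KO replicate 3 and HET replicate 2, where 10 markers summed to 1143 and 1423 CPM, against at most 28.7 CPM in the other KO libraries and at most 50.6 CPM in the other HET libraries. KO replicate 3 and HET replicate 3 carry the same title number.

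Of the 56 members, 49 passed the filter on low counts and 7 did not. Gpx2, Gpx5 and Gpx6 had 0 counts in every library. Gsta2, Gstm3, Gstm6 and Gstt4 had at most 12 counts in any KO library and at most 7 in any HET library. By the quasi-likelihood test of edgeR, 0 members had an adjusted p under 0.05, beside 0% of the 17584 genes tested, and the smallest adjusted p was 0.579. DESeq2 called 2 members, or 4.08%, beside 1.36% of all tested genes. At an unadjusted p under 0.05 stood 6 members, all lower in KO, and 0 were higher. They were Txnip, Gstt1, Me1, Gstt3, Sod3 and Gstz1. They make up 12.2% of the tested members, beside 8.59% of all tested genes in either direction, 4.29% on the lower side and 4.3% on the higher side. Without KO replicate 2 there were 3, namely Txnip, Gstt1 and Gstt3, beside 5.09% of all genes in either direction. There were also 3 without HET replicate 2, beside 3.63% of all genes, and 3 without HET replicate 3, beside 5.92%. Leaving out KO replicate 1 gave 8 members, or 16.3%, beside 9.41% of all genes, and leaving out KO replicate 3 gave 8, beside 12.5%. Txnip was among them each time.

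Every KO library lay below every HET library in 8 tested members, 16.3% of them, beside 7.42% of all tested genes, and no tested member had every KO library above every HET library, beside 8.1% of all genes. Over both directions the share was 16.3% of the members and 15.5% of all genes. The 8 were Txnip, Gstt1, Me1, Gstt3, Gstz1, Nfe2l2, Gpx3 and Gpx4, and the same 8 lay below HET when KO replicate 2 was left out, beside 10.1% of all genes. Gpx8 and Gsto2 then lay above HET, beside 10.3%, so that 20.4% of the members and 20.4% of all genes were without overlap. The summed fibroblast markers had the same order of the groups, as given above, but of the single markers only Col1a1, Col1a2 and Col3a1 shared it. Dcn stood at 369, 0.774 and 136 CPM in KO replicates 1 to 3, against 55.0, 59.6 and 356 CPM in HET replicates 1 to 3. The rest of the list overlapped too, Pdgfra, Thy1, Acta2 and S100a4 among them. The 8 adipocyte markers summed to 52.5 to 93.6 CPM in KO against 129 to 496 CPM in HET. Most of it was Lpl, at 41.6 to 89.2 CPM in KO and 104 to 468 CPM in HET. Pparg had the same order, at 0.977 to 6.26 CPM in KO and 8.80 to 25.7 CPM in HET, while Fabp4 overlapped. The part of these markers in the differences was not tested. The adipocyte gene Adipoq itself was at most 0.0396 CPM in KO and 0.118 CPM in HET. The log2 fold change was below 0 in 36 of 49 tested members, beside 49.1% of all tested genes, but with library size alone as the scaling it was below 0 in 23, beside 38.5%. The median over the tested members was -0.11 and over all genes 0.01, against 0.02 and 0.15 with library size alone. In bulk samples, fewer cells of a type and less RNA per cell cannot be told apart.

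**Figure D1:**
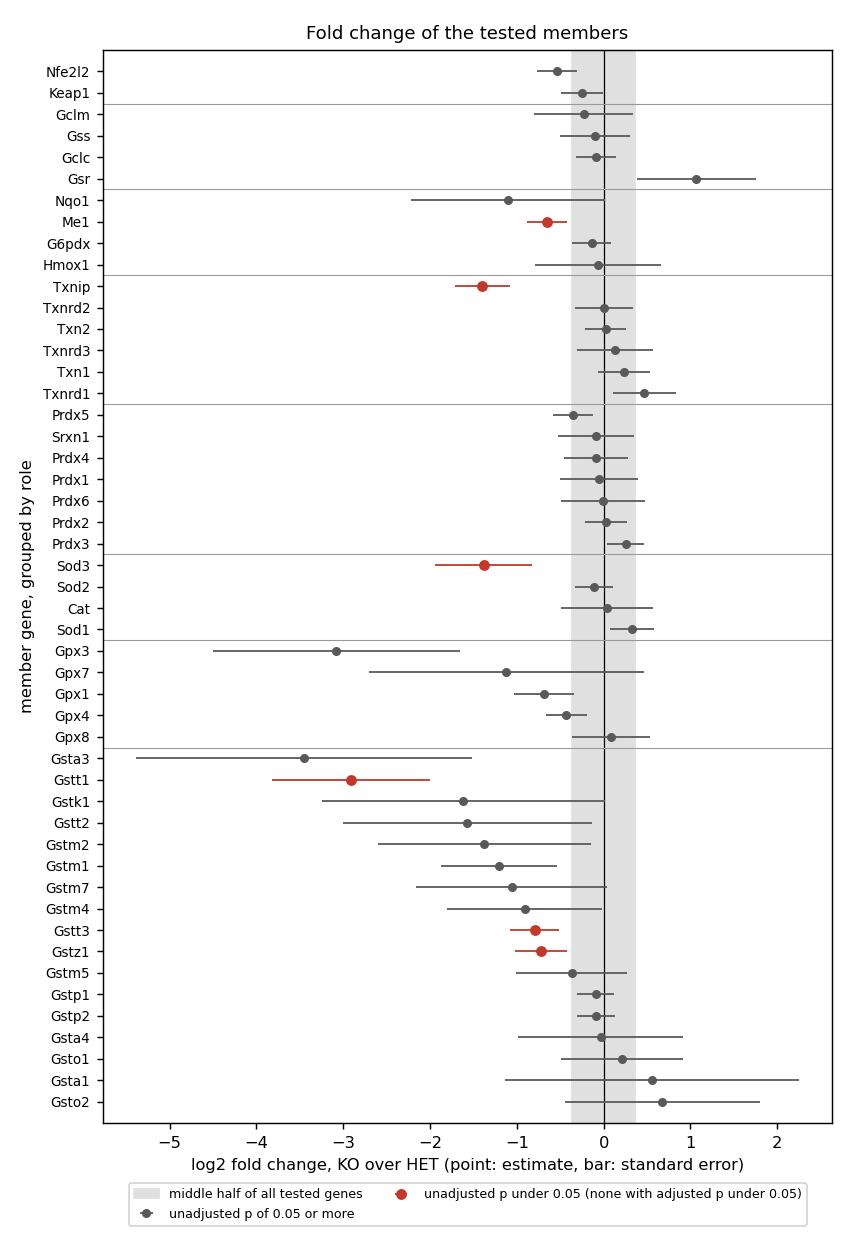
Log2 fold change of the 49 tested members, KO over HET, as estimate and standard error from edgeR, grouped by role, with the range holding the middle 50% of all tested genes shaded. The 6 red points, at unadjusted p under 0.05, all lie below 0, and none passed the adjusted threshold.

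Txnip had the smallest unadjusted p of the members. It encodes an arrestin-like protein that binds and inhibits thioredoxin and that promotes the removal of glucose transporters from the cell surface, and it is strongly induced by glucose through the factor MondoA. It lies on chromosome 3 from 96557957 to 96561883 (GRCm38). Txnip stood at 195, 93.5 and 141 CPM in KO replicates 1 to 3, against 404, 329 and 400 CPM in HET replicates 1 to 3. The lowest HET library was above the highest KO library. The means were 143 ± 50.5 CPM in KO and 378 ± 42.7 CPM in HET (SD, n = 3 each), a log2 fold change of -1.40 ± 0.32 (SE), with an unadjusted p of 0.00383 and an adjusted p of 0.579 in edgeR. DESeq2 placed it past its threshold (adjusted p = 0.0140), as it did 1 other member, Gstt1. The log2 fold change was -1.17 without KO replicate 2 and -1.50 without both libraries that held macrophage transcripts.

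The 250 bases of the genome before the Txnip start are shown because the region holds a pair of E-box-like repeats of the kind bound by MondoA with its partner MLX. The sequence is from RefSeq (GRCm38.p6, chr3:96557707-96557956, plus strand, 5′ to 3′), with the match in capitals.
Txnip promoter: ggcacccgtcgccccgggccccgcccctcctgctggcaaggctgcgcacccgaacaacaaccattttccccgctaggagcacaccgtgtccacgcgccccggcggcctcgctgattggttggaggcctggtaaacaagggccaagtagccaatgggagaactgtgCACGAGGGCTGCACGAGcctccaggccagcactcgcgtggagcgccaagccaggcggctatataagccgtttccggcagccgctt
The motif searched, on both strands, was a pair of CACGNG repeats with 5 bases of any kind between them. Other forms were searched too, and this one was kept because Txnip is known to carry such an element, so its presence here is only a description. It was present in 16 of 32851 RefSeq windows, or 0.0487%, each window running from 250 bases before to 50 bases after a start. Txnip was the only member with a match, at 85 to 69 bases before the start.

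Arrdc4, an arrestin-like relative of Txnip and another known MondoA target, had the same order of the groups. It stood at 9.22, 20.8 and 27.9 CPM in KO replicates 1 to 3, against 51.3, 67.3 and 59.2 CPM in HET replicates 1 to 3. edgeR gave a log2 fold change of -1.62 ± 0.41 (SE) at an adjusted p of 0.579, and DESeq2 an adjusted p of 0.0391. Within KO the order differed, as Arrdc4 was lowest in KO replicate 1 and Txnip in KO replicate 2. Of 8 tested genes of the MondoA list, including Mlxip, its own gene, and Mlx, that of its partner, 3 were higher and 5 lower in KO. Only Arrdc4 had an unadjusted p under 0.05. Arrdc2, next by p in that list, averaged 4.33 ± 1.35 CPM in KO and 5.35 ± 0.499 CPM in HET.

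**Figure D2:**
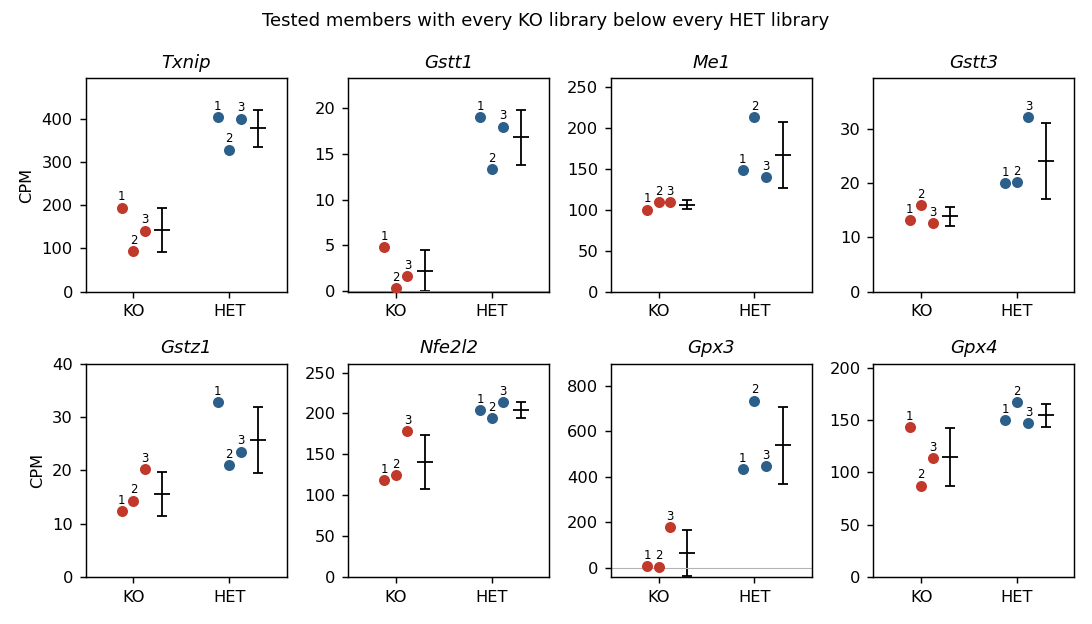
CPM of the 8 tested members in which every KO library lay below every HET library, with replicate numbers beside the points and mean ± SD at the right of each group (n = 3 each). The gap is widest for Txnip, Gstt1 and Gpx3 and narrow for Gpx4, where KO replicate 1 stood at 143 CPM and HET replicate 3 at 147 CPM.

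Nfe2l2, the gene of NRF2 (chromosome 2, 75675513 to 75704641), stood at 118, 124 and 179 CPM in KO replicates 1 to 3, against 204, 194 and 214 CPM in HET replicates 1 to 3. The groups did not overlap, and KO replicate 3 came closest to the HET range. On the log2 scale the difference was -0.54 ± 0.23 (SE), at an unadjusted p of 0.0569 and an adjusted p of 0.584 in edgeR. Keap1, the adaptor that hands NRF2 to a ubiquitin ligase, averaged 69.0 ± 17.2 CPM in KO and 82.1 ± 10.4 CPM in HET, with overlapping groups.

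The classic NRF2 targets differed between libraries more than between the labels. Hmox1, haem oxygenase 1, which breaks down haem, stood at 376, 154 and 1109.6 CPM in KO replicates 1 to 3, against 342, 599 and 775 CPM in HET replicates 1 to 3. Its highest and its lowest library were thus both labelled KO. Nqo1, a quinone reductase, stood at 14.2, 13.6 and 165 CPM in KO replicates 1 to 3, against 46.9, 248.7 and 117 CPM in HET replicates 1 to 3. KO replicates 1 and 2 were the lowest of the 6 libraries, and KO replicate 3 lay within the HET range. Srxn1, sulfiredoxin, which repairs over-oxidised peroxiredoxins, stood at 124, 138 and 321 CPM in KO replicates 1 to 3, against 150.0, 254 and 216 CPM in HET replicates 1 to 3.

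The same libraries were high in further targets. Gclm, the regulatory subunit of the enzyme that starts glutathione synthesis, stood at 53.6, 90.6 and 158 CPM in KO replicates 1 to 3, against 50.9, 189 and 114 CPM in HET replicates 1 to 3. Txnrd1, cytosolic thioredoxin reductase, stood at 316, 415 and 695 CPM in KO replicates 1 to 3, against 258, 378 and 395 CPM in HET replicates 1 to 3. Prdx1 and Prdx6, peroxiredoxins named here after their values were seen, likewise peaked in KO replicate 3, at 1178 and 838 CPM. Their HET maxima were 1012 and 707 CPM, both in HET replicate 2. For Hmox1, Nqo1, Srxn1, Gclm, Prdx1 and Prdx6, the 3 highest libraries were KO replicate 3, HET replicate 2 and HET replicate 3. Txnrd1 was instead second highest in KO replicate 2.

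Not every target followed this order. Gclc, the catalytic partner of Gclm, stood at 46.2, 52.0 and 40.7 CPM in KO replicates 1 to 3, against 39.9, 46.2 and 61.6 CPM in HET replicates 1 to 3. Slc7a11, the cystine carrier that feeds glutathione synthesis, stood at 65.9, 47.5 and 94.5 CPM in KO replicates 1 to 3, against 85.3, 62.1 and 53.5 CPM in HET replicates 1 to 3. With all libraries, none of Hmox1, Nqo1, Srxn1, Gclm, Gclc, Txnrd1 and Slc7a11 had an unadjusted p under 0.05 in edgeR. Their adjusted p ran from 0.687 to 0.981. The log2 fold changes ran from -1.10 ± 1.12 (SE) for Nqo1 to 0.47 ± 0.36 for Txnrd1.

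Macrophage transcripts coincided with part of this order. Lyz2, a lysozyme gene of myeloid cells, stood at 4.93, 4.44 and 1036 CPM in KO replicates 1 to 3, against 3.08, 1255 and 20.8 CPM in HET replicates 1 to 3. KO replicate 3 and HET replicate 2 were thus high in both, while in HET replicate 3, where Hmox1 stood at 775 CPM, the macrophage gene Adgre1 had 0 CPM and the leukocyte gene Ptprc 0.0392 CPM. Without KO replicate 3 and HET replicate 2, the log2 fold change of Hmox1 was -1.08 and that of Nqo1 was -2.58, with adjusted p of 0.822 and 0.819 in edgeR. Without KO replicate 3 alone they were -1.10 and -3.32, and without KO replicate 2 alone the value of Hmox1 turned to 0.37. Nqo1, but not Hmox1, had an unadjusted p under 0.05 in edgeR without KO replicate 3, beside 12.5% of all genes. The same held without KO replicate 3 and HET replicate 2, beside 5.61% of all genes. Without HET replicate 2 alone the value of Nqo1 was -0.36, against -1.10 with all libraries.

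**Figure D3:**
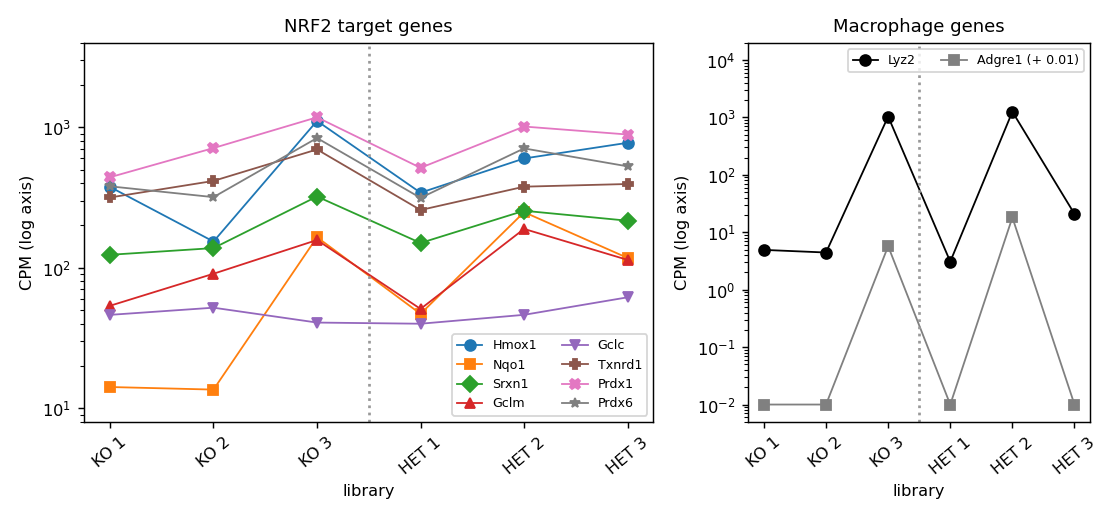
CPM on a log axis of 8 NRF2 target genes (left) and of the macrophage genes Lyz2 and Adgre1, the last with 0.01 added (right), in each library, with lines joining the values of a gene only to guide the eye. Hmox1, Nqo1, Srxn1, Gclm, Prdx1 and Prdx6 are higher in KO replicate 3, HET replicate 2 and HET replicate 3 than in the other 3 libraries, while Gclc is between 39.9 and 61.6 CPM in every library.

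NRF2 with a small MAF partner binds the antioxidant response element, whose core TGACNNNGC was searched on both strands in RefSeq promoter windows (GRCm38.p6). A window was at hand for 49 members, in 63 windows in all. The core was present in 11 of these windows, or 17.5%, beside 12.4% of 32851 windows, and each of the 11 belonged to a different member. The matches of 4 targets described above, of Nfe2l2, and of Me1 are shown with 10 bases on either side, so that the variable middle of the core can be compared. Each reads 5′ to 3′ on the strand that carries TGAC, with the core in capitals.
Srxn1, chr2:152105542-152105570, minus strand: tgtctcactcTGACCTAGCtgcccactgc
Gclm, chr3:122245413-122245441, minus strand: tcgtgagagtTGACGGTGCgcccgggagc
Prdx1, chr4:116685456-116685484, minus strand: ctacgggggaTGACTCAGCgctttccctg
Txnrd1, chr10:82859104-82859132, minus strand: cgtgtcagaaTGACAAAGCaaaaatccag
Nfe2l2, chr2:75704885-75704913, minus strand: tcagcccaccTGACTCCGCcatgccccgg
Me1, chr9:86695902-86695930, minus strand: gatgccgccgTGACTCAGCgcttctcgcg
Of these 6, only the Prdx1 and Me1 matches also hold TGANTCA, the AP-1 motif, which lies within the core there. The Srxn1 match lies after the start site and the others before it or across it. Of the genes in the plot of NRF2 targets, Srxn1, Gclm, Prdx1 and Txnrd1 had a match, and the single Nqo1 window had none, while no window was at hand for Hmox1, Gclc and Prdx6. These letters say nothing of whether NRF2 was bound.

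Among the other genes of glutathione synthesis and recycling, Gss, glutathione synthetase, averaged 42.5 ± 18.8 CPM in KO and 45.6 ± 17.03 CPM in HET. Gsr, which reduces oxidised glutathione, was set apart by 1 library. It stood at 17.2, 91.6 and 18.3 CPM in KO replicates 1 to 3, against 19.6, 23.7 and 17.4 CPM in HET replicates 1 to 3. All libraries but KO replicate 2 lay between 17.2 and 23.7 CPM, and Gsr was named after its values were seen.

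NADPH, the source of electrons for both glutathione and thioredoxin, is supplied by malic enzyme and by the pentose phosphate pathway. Me1, cytosolic malic enzyme (chromosome 9, 86581371 to 86695953), stood at 100.01, 109 and 109 CPM in KO replicates 1 to 3, against 148, 213 and 139 CPM in HET replicates 1 to 3. The KO libraries lay close together and all below HET, with a log2 fold change of -0.65 ± 0.23 (SE), an unadjusted p of 0.0271 and an adjusted p of 0.579 in edgeR. G6pdx, glucose-6-phosphate dehydrogenase, averaged 127 ± 7.95 CPM in KO and 139 ± 29.5 CPM in HET, with overlapping groups.

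Txnip aside, the thioredoxin system and the peroxiredoxins gave no clear difference between the labels. Of the 6 tested thioredoxin system genes 4 had a fold change above 0 and 2 below, and of the 7 peroxiredoxin and sulfiredoxin genes 2 were above and 5 below. Apart from Txnip, none of these had an unadjusted p under 0.05. Txn2, mitochondrial thioredoxin, averaged 169 ± 38.6 CPM in KO and 166 ± 17.3 CPM in HET. Prdx2 averaged 280.4 ± 59.8 CPM in KO and 274 ± 28.4 CPM in HET, and Prdx5 averaged 248 ± 19.9 CPM in KO and 316 ± 55.9 CPM in HET. The standard errors of their log2 fold changes were 0.24, 0.24 and 0.23, so small differences were not detectable here. They were larger for some others, at 0.45 for Prdx1, 0.48 for Prdx6 and 0.44 for Txnrd3, where larger differences could be missed too.

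Of the superoxide dismutases, only the extracellular enzyme had an unadjusted p under 0.05. Sod3, which is secreted and held at the cell surface and matrix, stood at 294, 135 and 69.9 CPM in KO replicates 1 to 3, against 279, 546 and 479 CPM in HET replicates 1 to 3. KO replicate 1 lay above the lowest HET library, so the groups overlapped, and without that library the log2 fold change was -2.08. On the log2 scale the difference was -1.38 ± 0.56 (SE), at an unadjusted p of 0.0471 and an adjusted p of 0.579 in edgeR. Sod1, the cytosolic copper and zinc enzyme, averaged 99.9 ± 25.4 CPM in KO and 79.5 ± 11.2 CPM in HET. Catalase, named after its values were seen, stood at 44.1, 197 and 96.98 CPM in KO replicates 1 to 3, against 85.6, 139 and 104 CPM in HET replicates 1 to 3, so its highest and its lowest value were both in KO.

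Glutathione peroxidases reduce peroxides with glutathione, and 4 of the 5 tested had a fold change below 0, beside 49.1% of all tested genes. Gpx3, the secreted plasma form (chromosome 11, 54902453 to 54910377), stood at 6.16, 5.31 and 180 CPM in KO replicates 1 to 3, against 434, 735 and 447 CPM in HET replicates 1 to 3. KO replicates 1 and 2 were far below the rest, and KO replicate 3 lay between them and HET. On the log2 scale the difference was -3.08 ± 1.42 (SE), at an unadjusted p of 0.0706 and an adjusted p of 0.589 in edgeR, and it was -6.55 without KO replicate 3. Gpx4, which reduces lipid peroxides in membranes and so guards against ferroptosis, stood at 143, 87.3 and 113 CPM in KO replicates 1 to 3, against 150, 167 and 147 CPM in HET replicates 1 to 3.

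Gpx1, the abundant cytosolic form, stood at 525, 271 and 258 CPM in KO replicates 1 to 3, against 491, 623 and 580 CPM in HET replicates 1 to 3. KO replicate 1 lay within the HET range, and the adjusted p was 0.593 in edgeR. Gpx7 and Gpx8 are forms of the endoplasmic reticulum, where disulfide bonds of secreted proteins are made. Gpx7 had no count in KO replicate 2, and 29.4 and 26.3 CPM in KO replicates 1 and 3, against 69.1, 27.6 and 24.5 CPM in HET replicates 1 to 3. With a floor of 3 counts, it was at least 316-fold lower in KO replicate 2 than in the lowest other library. Gpx8 stood at 227, 78.2 and 230.0 CPM in KO replicates 1 to 3, against 124, 194 and 186 CPM in HET replicates 1 to 3.

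Glutathione S-transferases join glutathione to electrophiles. Of the 17 tested, 14 had a fold change below 0 and 3 above, beside 49.1% of all tested genes below 0. In the theta class, Gstt1 (chromosome 10, 75783813 to 75798584) stood at 4.77, 0.310 and 1.58 CPM in KO replicates 1 to 3, against 19.1, 13.3 and 18.0 CPM in HET replicates 1 to 3. The KO libraries were all below 5 CPM and the HET libraries all above 13 CPM. On the log2 scale the difference was -2.91 ± 0.91 (SE), at an unadjusted p of 0.0168 and an adjusted p of 0.579 in edgeR and an adjusted p of 0.0394 in DESeq2. Without KO replicate 1 the log2 fold change of Gstt1 was -4.17. Its neighbour Gstt3 (75774115 to 75781414) stood at 13.2, 15.9 and 12.6 CPM in KO replicates 1 to 3, against 20.02, 20.1 and 32.2 CPM in HET replicates 1 to 3. edgeR gave it a log2 fold change of -0.80 ± 0.28 (SE) at an adjusted p of 0.579.

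Gstz1, which also acts in tyrosine breakdown, stood at 12.3, 14.3 and 20.3 CPM in KO replicates 1 to 3, against 32.8, 20.9 and 23.5 CPM in HET replicates 1 to 3. KO replicate 3 came close to HET replicate 2, and edgeR gave a log2 fold change of -0.72 ± 0.30 (SE) at an adjusted p of 0.581. In the mu class, Gstm2 (chromosome 3, 107981702 to 107986453) stood at 99.3, 1.11 and 22.8 CPM in KO replicates 1 to 3, against 89.6, 113 and 117 CPM in HET replicates 1 to 3. KO replicate 1 lay within the HET range. Mu class genes lie side by side and are alike in sequence, so the split of reads between them is uncertain. The ratio of Gstm2 to Gstm1, its close relative, was 0.0630 in KO replicate 2, between 1.11 and 1.24 in the other KO libraries and between 0.937 and 1.79 in HET.

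The omega and pi classes did not separate the labels. Gsto1, which reduces dehydroascorbate and glutathionylated proteins, stood at 826, 128 and 695 CPM in KO replicates 1 to 3, against 316, 368 and 743 CPM in HET replicates 1 to 3. Its neighbour Gsto2 stood at 11.2, 0.284 and 9.62 CPM in KO replicates 1 to 3, against 2.58, 3.18 and 7.48 CPM in HET replicates 1 to 3. Both were lowest in KO replicate 2. Without it their log2 fold changes were 0.68 and 1.25, against 0.21 and 0.68 with all libraries, and neither had an adjusted p under 0.05 in edgeR. Gstp1, the pi class enzyme, averaged 56.8 ± 11.8 CPM in KO and 60.6 ± 2.03 CPM in HET. Gstp2 kept a ratio of 0.691 to 0.718 to Gstp1 in all 6 libraries, and reads of these near-identical genes cannot be told apart with confidence.

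**Figure D4:**
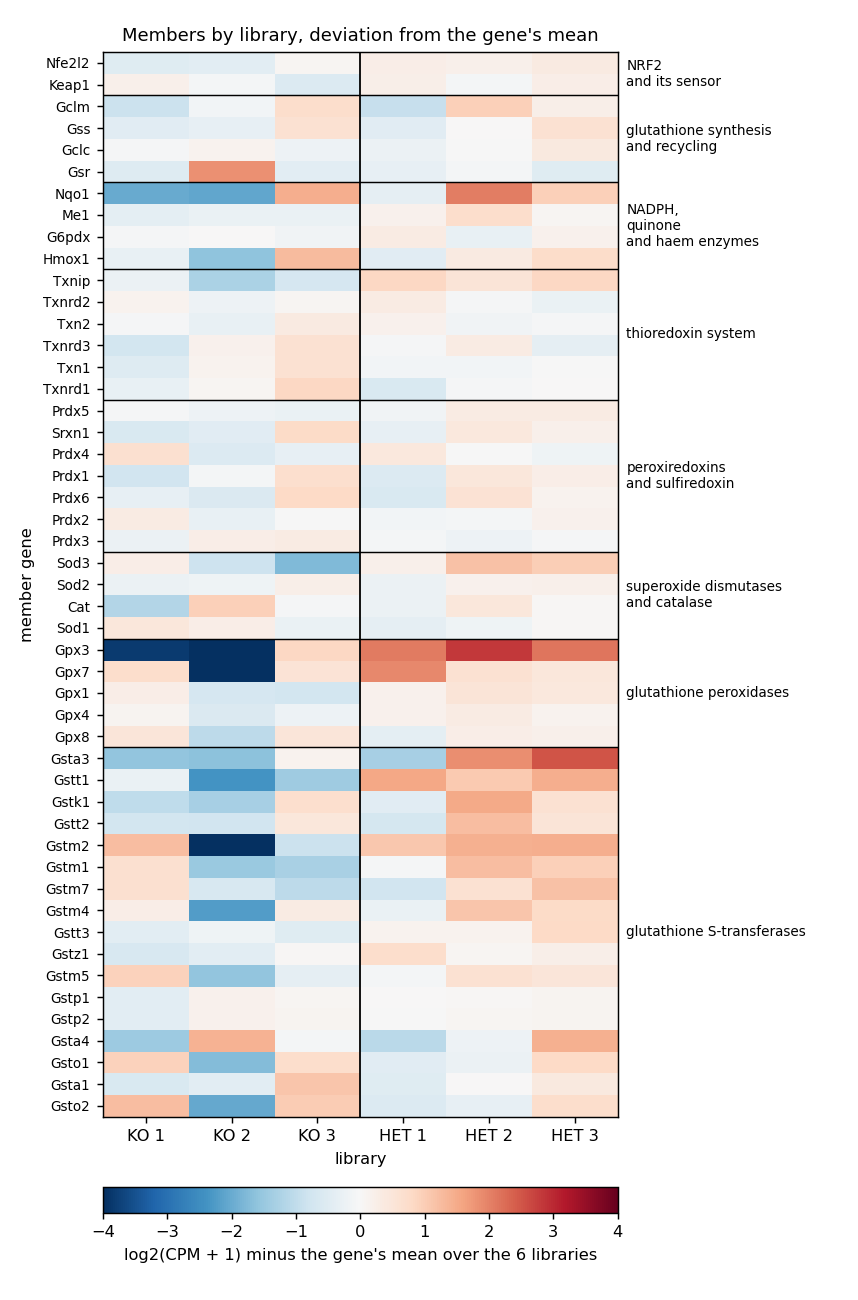
Deviation of log2(CPM + 1) from each gene's mean over the 6 libraries for the 49 tested members, with KO libraries left of the line, and colours capped at 4 in either direction. The darkest blue cells are Gpx3 in KO replicates 1 and 2 and Gpx7 and Gstm2 in KO replicate 2, where Gstm2 stood at 1.11 CPM. Hmox1, Nqo1 and Srxn1 are red in KO replicate 3, HET replicate 2 and HET replicate 3.

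Across the tested members, the libraries differed within a label. KO replicate 2 was the lowest library in 20 members, or 40.8%, beside 23.5% of all tested genes, and KO replicate 1 in 15, or 30.6%, beside 17.8%. HET replicates 2 and 3 were each lowest in 1 member, or 2.04%, beside 21.7% and 8.57% of all genes. The library most often highest was KO replicate 3, in 13 members, or 26.5%, beside 13.2% of all genes. HET replicate 2 followed with 11, or 22.4%, beside 16.9%, and HET replicate 3 with 9, or 18.4%, beside 12.3%. The median member stood at -0.26, -0.43 and 0.09 in KO replicates 1 to 3, against -0.12, 0.32 and 0.33 in HET replicates 1 to 3, as log2 deviation from the 6-library mean. KO replicate 3 was thus above HET replicate 1. Summed over the 56 members, the level was 6075, 4694 and 8292 CPM in KO replicates 1 to 3, against 6157, 8853 and 8618 CPM in HET replicates 1 to 3. The sum was largest in the 3 libraries in which Hmox1 and Nqo1 were high. Hmox1, Nqo1, Prdx1 and Prdx6 are themselves part of the sum, so this match is in part built in.

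Compared per kilobase of annotated exon, the mean level over all libraries was highest for Hmox1 (319 CPM per kilobase), Gpx1 (318), Prdx1 (260) and Gsto1 (253). Hmox1 ran from 87.7 to 634 CPM per kilobase in KO and from 195 to 443 in HET, and Gpx1 ran from 179 to 365 in KO and from 341 to 432 in HET. The ranges of these 4 genes overlapped, so their order was not fixed across libraries. Gclc, at 12.7 CPM per kilobase, and Gsr, at 11.4, were among the lower members of the pathway in level, and of the tested members only Gsta1 and Gstt2 were below 1 CPM per kilobase.

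Among 147 other tested genes of the pathway, taken from 9 lists, 51 had a fold change above 0 and 96 below. Of all tested genes 49.1% were below 0, and such counts of direction shift with the scaling, as given above for the members. None passed an adjusted p of 0.05 in edgeR. At an unadjusted p under 0.05 stood 5 higher and 17 lower, together 15.0%, beside 8.59% of all tested genes in either direction. DESeq2 called 4, namely Abcc1, Arrdc4, Aldh1l2 and Dio3, beside 1.36% of all tested genes. In the list of cystine uptake and glutathione breakdown, 12 of 16 tested genes were below 0, beside 49.1% of all tested genes. Of these, 5 had an unadjusted p under 0.05, beside 4.29% of all tested genes on the lower side. No list was tested as a set. Slc1a5, a glutamine carrier, averaged 35.8 ± 11.7 CPM in KO and 76.3 ± 19.1 CPM in HET, and Cth, which makes cysteine from cystathionine, averaged 3.21 ± 0.314 CPM in KO and 9.81 ± 6.31 CPM in HET (adjusted p = 0.579 each in edgeR). In HET, Cth was highest in HET replicate 1, at 17.1 CPM, and its log2 fold change was -1.61 with that library and -0.94 without it.

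In the list of further NRF2 targets 13 of 29 tested genes were above 0 and 16 below. Abcc1, a pump that exports glutathione conjugates, stood at 236, 277 and 305 CPM in KO replicates 1 to 3, against 157, 169 and 143 CPM in HET replicates 1 to 3. Every KO library lay above every HET library, with a log2 fold change of 0.80 ± 0.20 (SE), an adjusted p of 0.579 in edgeR and 0.0287 in DESeq2. Aox1, an aldehyde oxidase, averaged 4.94 ± 2.19 CPM in KO and 13.9 ± 3.81 CPM in HET. Of 14 tested partners and regulators of NRF2, 5 were above 0 and 9 below. Nfe2l1, the relative of NRF2 that maintains proteasome genes, averaged 445 ± 78.5 CPM in KO and 764 ± 206 CPM in HET, and Palb2, a DNA repair protein that binds KEAP1, averaged 5.69 ± 3.92 CPM in KO and 2.08 ± 0.953 CPM in HET.

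Of 18 tested genes of NADPH supply, 7 were above 0 and 11 below. Aldh1l2, a mitochondrial folate enzyme that makes NADPH, stood at 29.2, 16.7 and 28.7 CPM in KO replicates 1 to 3, against 329, 85.9 and 63.7 CPM in HET replicates 1 to 3. The groups did not overlap, HET replicate 1 was far above the rest, and the adjusted p was 0.579 in edgeR and 0.0119 in DESeq2. The log2 fold change of Aldh1l2 was -2.68 with all libraries and -1.58 without HET replicate 1. Idh1, cytosolic isocitrate dehydrogenase, averaged 81.4 ± 30.3 CPM in KO and 195 ± 74.2 CPM in HET. Of 19 tested glutaredoxins, methionine sulfoxide reductases and microsomal transferases, 7 were above 0 and 12 below. Msrb1, a selenoprotein that repairs oxidised methionine, stood at 48.7, 48.6 and 50.4 CPM in KO replicates 1 to 3, against 114, 167 and 65.7 CPM in HET replicates 1 to 3. Mgst1, a membrane-bound glutathione transferase, averaged 49.9 ± 23.7 CPM in KO and 126 ± 26.1 CPM in HET.

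Among 18 tested genes of selenoprotein synthesis and other selenoproteins, 6 were above 0 and 12 below. Dio3, the deiodinase that inactivates thyroid hormone, stood at 1.00, 0.232 and 0.475 CPM in KO replicates 1 to 3, against 229, 36.9 and 14.8 CPM in HET replicates 1 to 3. Every HET library was far above every KO library, with a log2 fold change of -7.33 ± 1.35 (SE), an adjusted p of 0.579 in edgeR and 3.1e-10 in DESeq2. Without HET replicate 1 its log2 fold change was -5.48. Sepp1, the secreted selenium carrier, averaged 37.0 ± 35.0 CPM in KO and 179 ± 86.1 CPM in HET. Of 16 tested metallothionein, sestrin and ferroptosis defence genes, 5 were above 0 and 11 below. Pon3, a paraoxonase, averaged 19.8 ± 2.17 CPM in KO and 35.7 ± 11.3 CPM in HET. Of 11 tested oxidant sources, 2 were above 0 and 9 below, and none had an unadjusted p under 0.05. Lox, which cross-links collagen and releases hydrogen peroxide, averaged 1210.0 ± 1563 CPM in KO and 4445 ± 1227 CPM in HET. Xdh, xanthine dehydrogenase, averaged 40.8 ± 29.5 CPM in KO and 87.9 ± 30.4 CPM in HET.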

How the data were processed

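Gene expression was measured by RNA sequencing of 6 fibroblast libraries. Per the labels' protocols, libraries were prepared from total RNA with a stranded, ribosome-depleting kit. The tools cutadapt 1.2.1, Bowtie2 and Partek stand in the submitters' processing notes, as do the builds GRCm38 and mm10. No source used here names the annotation or the counting method. The authors deposited estimated counts per gene, not scaled between libraries. The authors also deposited RPKM values, whose length matched the genomic span of the gene, introns included, to within 1% in 91.8% of 7323 genes with a span over 3 times their exons, and the exon length in 1.23%. Levels between genes were therefore compared as CPM per kilobase of exon (GENCODE M21, GRCm38). Table lines without a gene name, 30 in all and holding a biotype instead, were left out, and 7 repeated symbols were summed.

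Counts were rounded, filtered with filterByExpr, scaled by TMM and compared between KO and HET by the two-sided quasi-likelihood test of edgeR 4.0.16 (R 4.3.3), and p was adjusted by Benjamini-Hochberg over 17584 genes at 0.05. Standard errors were derived from the fold change and the F statistic. Totals ran from 24954273 to 42470598, so 3 counts were 0.0706 to 0.120 CPM before TMM scaling. After scaling, the floor in KO replicate 2, used for Gpx7, was 0.0774 CPM. Floors cover counting error only. Groups came from the genotype labels, and replicate numbers follow accession order and pair nothing. The count test was also run on simulated data. Those were drawn without outlying libraries, so that run says nothing of how a library such as KO replicate 2 affects the test. Alternatives were other scalings and filters, DESeq2 1.42.0 with independent filtering at 0.05, limma-voom and limma 3.58.1 on log2(RPKM + 1) and log2(RPKM + 0.1), and leaving out libraries. The members, lists and rules were chosen with earlier results of these data known. Named members were the 2 of highest deposited mean RPKM, which is per genomic span, in each role, the 10 of smallest p, the 6 that stood out most in KO replicate 2, and NRF2, KEAP1 and classic targets. In each pathway list the 2 genes of smallest p were named, except for 1 gene that is not reported here.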

Additional observations from a re-analysis of the deposited data

How the results depend on the processing

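No adjusted call by edgeR was made for any member under any alternative, while DESeq2 called 240 genes and 2 members, Txnip and Gstt1. With library size alone, 2 members had an unadjusted p under 0.05 and 5 were without overlap. The shares of all genes were not counted under that scaling. Leaving out 1 library gave 3 to 8 members at an unadjusted p under 0.05 (6.12% to 16.3%, beside 3.63% to 12.5% of all genes). It gave 8 to 18 without overlap in either direction (16.3% to 36.7% of members, beside 19.1% to 33.3% of all genes). The median log2 fold change was then -0.48 (without KO replicate 3) to -0.15. Leaving out KO replicate 3 with HET replicate 2 gave 15 without overlap, or 32.6%, beside 37.6% of all genes. Fewer libraries make overlap rarer by construction, and the cause of the other changes was not tested.

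Over the named genes and alternatives, 698 values kept direction and side of the threshold, 6 passed it under DESeq2 alone, and 48 changed sign. With library size alone, the log2 fold change of G6pdx was 0.0062, Gclc 0.051, Gss 0.017, Gstp1 0.052, Hmox1 0.031 and Srxn1 0.036. With limma on log2(RPKM + 0.1) G6pdx was 0.012, Gclc 0.049, Gss 0.0070 and Gstp1 0.012, and on log2(RPKM + 1) G6pdx was 0.0077, Gclc 0.023, Gss 0.0025 and Gstp1 0.013. With limma-voom Gpx8 was -0.038, Gsto1 -0.073 and Gsto2 -0.36. Without KO replicate 3 and HET replicate 2, Gpx8 was -0.031, Gsto1 -0.15 and Txn2 -0.25, and without both replicates 3, Gclc was 0.16, Gpx8 -0.079 and Txn2 -0.21. Leaving out 1 or 2 libraries, the ranges were -0.30 to 0.0028 for G6pdx, -0.21 to 0.16 for Gclc, -0.76 to 0.29 for Gclm, -0.14 to 0.44 for Gpx8, -0.59 to 0.23 for Gss, -0.22 to 0.69 for Gsto1, -0.22 to 0.062 for Gstp1, -1.10 to 0.37 for Hmox1, -0.15 to 0.17 for Prdx2, -0.66 to 0.14 for Srxn1 and -0.25 to 0.16 for Txn2.

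No paired analysis was possible because the titles of the 2 groups share only 1 number. With 3 libraries a group, the standard errors of genes such as Gsta3, Gpx3, Gstm2 and Nqo1 limit what can be called, and low genes such as Gstt1 in KO rest on few counts.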
